A study of Homo sapiens with 4 samples.

Results

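The mitochondrial carrier family was measured as every gene named SLC25A followed by a number, plus MTCH1, MTCH2 and UCP2, in a table of fragment counts for 62700 genes. These names matched 52 gene entries with 51 distinct symbols, because SLC25A6 is listed once on the X and once on the Y chromosome. Of the 52 entries, 47 held at least 10 counts in at least 2 of the 4 libraries, and 5 did not. The choice used gene names and this minimum, not the difference between groups directly, and was made with earlier results of these data known. SLC25A41 reached the minimum through its unlabelled counts alone.

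SLC25 proteins are built from repeated pairs of membrane-spanning helices and move metabolites, nucleotides, cofactors and ions, mostly across the inner mitochondrial membrane. They are encoded by nuclear genes, are translated in the cytosol and carry no cleaved targeting signal in most cases; small TIM chaperones and the TIM22 complex insert them into the inner membrane. Their mRNAs are made in the nucleus and not in the matrix, the compartment to which the labelling construct was directed.

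The libraries came from HEK293T cells, a transformed human embryonic kidney line that the labels describe as a stable clone derivative of HEK293. All cells carried the genotype CMV-V5-MITO-PRADA, a V5-tagged construct named after the CMV promoter and stably expressed, and no library from cells without it was analysed here. The labelled group, 2 libraries, received 4-thiouridine (s4U), a uridine analogue taken up into new RNA, at 100 µM for 5 h, then 0.5 mM alkyne phenol with s4U for 30 min, then 10 mM D-amino acid for 30 min. The unlabelled group, 2 libraries, received s4U and alkyne phenol in the same way and no D-amino acid. The design text calls the material labelled and enriched, and rRNA was depleted. The titles call the replicates biological and do not give their source cultures. Every p-value below from all 4 libraries is thus set against differences among them, part of which may be technical. With 1 library left out, p-values are set against the pair that remains.

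Labelled libraries held 9380258 and 12287451 assigned fragments, against 8172347 and 5771795 in unlabelled libraries, and 3 fragments corresponded to 0.244 to 0.320 CPM (counts scaled to a total of 1000000 fragments) in labelled and 0.367 to 0.520 CPM in unlabelled libraries. All CPM of single genes below are also scaled by TMM, which takes most genes to be equal between libraries. Genes of the mitochondrial chromosome took 27.0% and 30.9% of labelled fragments, against 9.04% and 10.4% of unlabelled fragments. All 6 HEK293 markers passed the minimum, with summed levels of 97.0 to 112 TPM in labelled and 140 to 195 TPM in unlabelled libraries. TPM are counts divided by gene length and scaled to a total of 1000000 over all genes. That total includes the genes of the mitochondrial chromosome and is not scaled by TMM, so TPM sums are not comparable between groups in the way TMM-scaled CPM are. Of the blood markers, CD3E and HBB were at 0 in every library, and PTPRC and LYZ held at most 2 counts in any library. Of 5 fibroblast and endothelial markers 2 passed and COL1A2 was at 0 in every library, with sums of 3.38 to 3.97 TPM in labelled and 3.16 to 6.16 TPM in unlabelled libraries. The part of other cells in the results was not tested. In bulk RNA, fewer cells of a type and less RNA per cell cannot be told apart.

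Over the members, the unlabelled libraries stood apart from each other. Over the 47 members tested, the median absolute log2 difference in CPM was 0.12 between the labelled libraries and 0.25 between the unlabelled libraries, the largest value among the 6 pairs of libraries. Over all genes tested it was 0.26 between the unlabelled libraries, and 0.27 and 0.29 between unlabelled replicate 2 and labelled replicates 1 and 2. Fold changes of members called with 1 unlabelled library left out are therefore given without each unlabelled library in turn.

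Because several members are close copies of each other, the coding sequences of the 4 ADP/ATP carriers show how far fragments of one member can be told from those of another. The lines give 54 bases of coding sequence around the signature that marks ADP/ATP carriers, from the main transcripts of GENCODE 29, 5′ to 3′, with capitals at bases that differ from SLC25A5.
SLC25A5: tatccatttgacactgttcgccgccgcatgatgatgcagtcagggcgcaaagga
SLC25A4: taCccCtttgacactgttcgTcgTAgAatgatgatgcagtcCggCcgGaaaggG
SLC25A6: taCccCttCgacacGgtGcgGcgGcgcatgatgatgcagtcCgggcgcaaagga
SLC25A31: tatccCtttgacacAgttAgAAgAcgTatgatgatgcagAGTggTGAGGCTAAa
Even at this conserved site SLC25A4 differed from SLC25A5 at 10 bases, SLC25A6 at 8 and SLC25A31 at 19. Over the aligned coding sequences, identity with SLC25A5 was 77.2% for SLC25A4, 78.7% for SLC25A6 and 67.0% for SLC25A31. The longest run of identical bases between SLC25A5 and SLC25A6 was 29, shorter than the window of 50 bases used below.

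No member of the family passed the test of labelled against unlabelled libraries. With edgeR, 0 of 47 members tested were called at an adjusted p under 0.05, against 0.285% of all 18973 genes tested. DESeq2 also called 0 members, against 0.458% of the 16605 genes to which it gave an adjusted p. It gave none to SLC25A41, which it therefore could not call. At an unadjusted edgeR p under 0.05 there were 7 members, or 14.9%, against 11.5% of all genes. Of these, 2 had positive log2 fold changes, against 5.67% of all genes, and 5 negative ones, against 5.88%. The lowest edgeR adjusted p among members was 0.303. It belonged to SLC25A41, one of these 5 negative members, which reached the minimum through its unlabelled counts alone. The median log2 fold change of the members was -0.040, with quartiles at -0.16 and 0.070, against -0.013 for all genes tested, with quartiles at -0.23 and 0.17. Of the 47 members, 45 lay within 0.5 of 0 on the log2 scale, and the 95% interval of 41 lay within 1 of 0. Other settings also called 0 members, with 0.300% of all genes called under DESeq2 size factors or TMM outside the mitochondrial chromosome, 0.285% under the minimum of 10 counts, 0.761% without a filter, 0.359% with all libraries thinned to the lowest assigned total and 1.24% with a replicate block. Scaling by library size alone called 9 members, all lower, against 14.1% of all genes lower and 14.5% in either direction, with medians of -0.39 for members and -0.37 for all genes.

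A p that misses the threshold does not show that levels were equal, and the median SE of 0.15 sets what could be seen. Read without a test, 17 fold changes were positive and 30 negative. In 10 members, or 21.3%, both labelled libraries lay above both unlabelled libraries, against 22.2% of all genes tested. In 6 members, or 12.8%, both lay below, against 22.4% of all genes, and SLC25A41 was among these 6. In the other 31 members the groups overlapped.

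**Figure D1:**
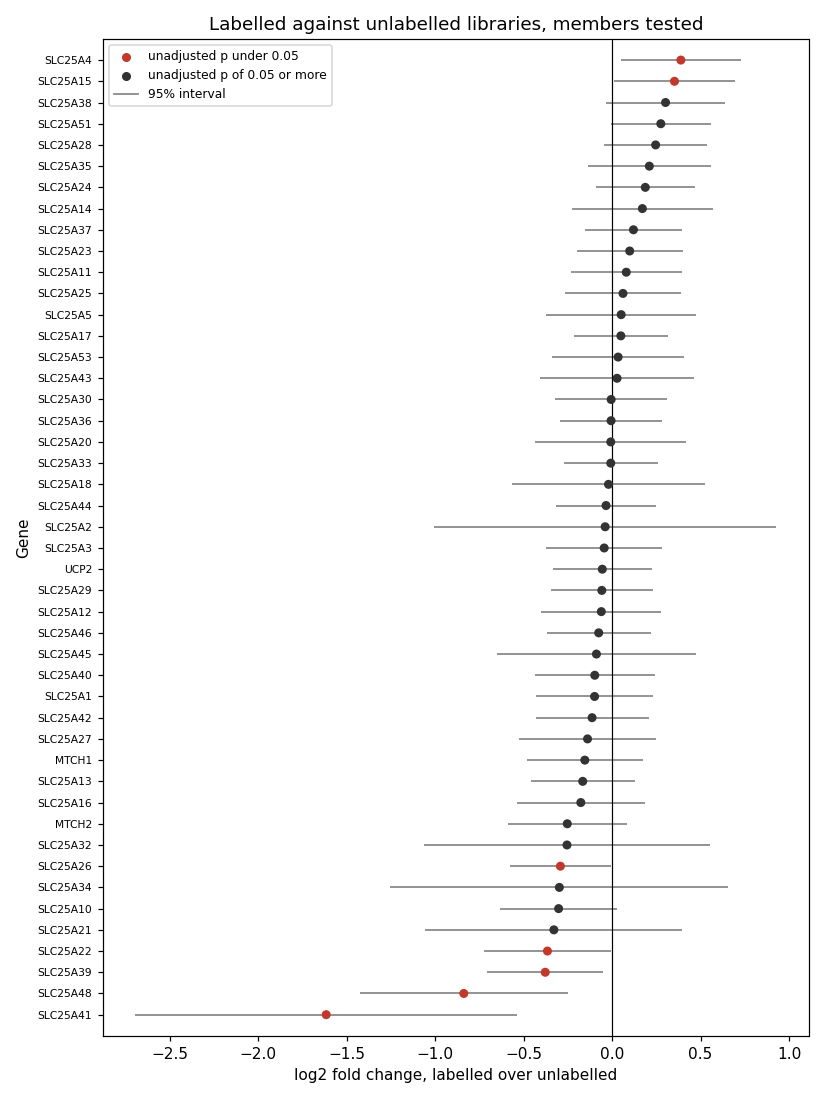
Log2 fold change of labelled over unlabelled libraries (x axis) for 46 of the 47 members tested (y axis, ordered by value). Points are edgeR estimates and lines are 95% intervals; SLC25A41 and SLC25A48 lie at -1.62 and -0.84, and all other points lie within 0.5 of 0.

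Both labelled libraries gave the family a smaller share of assigned fragments than either unlabelled library. It took 0.198% of fragments in labelled replicate 1 (95% Wilson interval 0.195 to 0.201%) and 0.188% in labelled replicate 2 (0.186 to 0.191%). In unlabelled libraries it took 0.268% (0.264 to 0.271%) and 0.236% (0.232 to 0.240%). The means were 0.193% ± 0.00688 in labelled and 0.252% ± 0.0227 in unlabelled libraries (SD, n = 2 each), a ratio of 0.768. The groups did not overlap, and the two-sided exact permutation test gave p = 0.333 (0.667 adjusted over the 4 shares tested), the smallest p that 2 against 2 libraries allow.

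Outside the mitochondrial chromosome the shares of the family overlapped. The family took 0.271% and 0.273% of these fragments in labelled libraries, against 0.294% and 0.263% in unlabelled libraries. The means were 0.272% ± 0.000926 in labelled and 0.279% ± 0.0222 in unlabelled libraries (SD, n = 2 each; exact permutation test p = 1, also 1 when adjusted). The lower share of all fragments stood beside the higher mitochondrial share given above, and outside that chromosome the means differed by less than the spread between unlabelled libraries. The difference of the means outside it was -0.00679 percentage points, with 0.00889 without unlabelled replicate 1 and -0.0225 without unlabelled replicate 2.

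Levels differed widely within the family. Levels are given as FPKM, the TMM-scaled CPM per kilobase of the summed exon length of each gene, as mean ± SD of the 4 libraries. SLC25A5 alone exceeded 50 FPKM, 13 lay between 10 and 50, 26 between 1 and 10, 10 above 0 and under 1, and both SLC25A6 entries were listed at 0. The median over members past the minimum was 5.80 FPKM, against 3.70 FPKM over all 19277 genes past it. The coefficient of variation over the 4 libraries ran from 1.58% for SLC25A33 to 61.5% for SLC25A41, with a median of 10.6%.

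**Figure D2:**
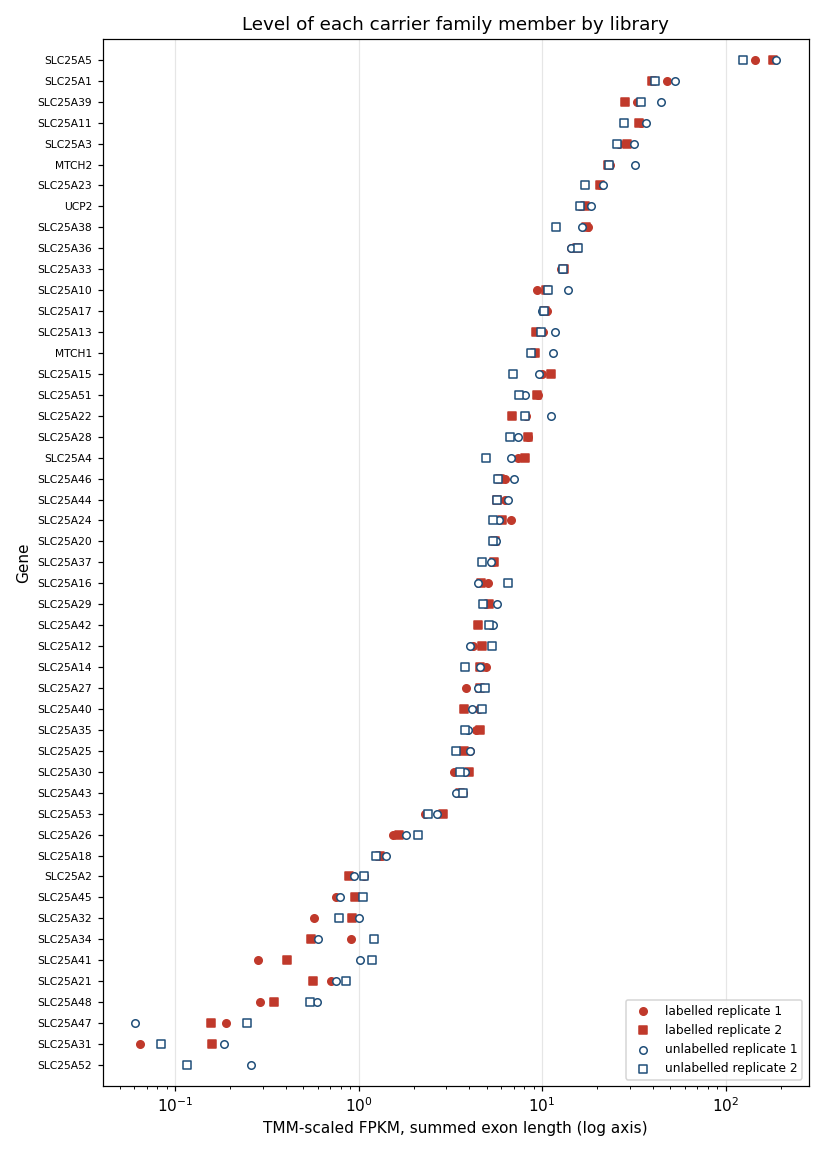
TMM-scaled FPKM on a log axis (x) in each of the 4 libraries for members with any count (y, ordered by mean). SLC25A5 stands highest at a mean of 160 FPKM, and SLC25A47, SLC25A31 and SLC25A52 stand lowest; a library at 0 has no point.

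The order of levels held few clear steps. A member was counted as clear of the next when its lowest library lay above the highest library of the next. This held for 7 of 46 pairs of neighbours, namely SLC25A5 over SLC25A1, MTCH2 over SLC25A23, SLC25A36 over SLC25A33, SLC25A43 over SLC25A53, SLC25A53 over SLC25A26, SLC25A26 over SLC25A18 and SLC25A18 over SLC25A2. In all other pairs of neighbours the libraries overlapped.

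The length used for a gene set much of this order. Divided by the length of the main GENCODE 29 transcript, SLC25A5 stayed first at 195 ± 37.6 FPKM, while SLC25A3 stood 2nd at 149 ± 14.7 FPKM and MTCH1 4th at 67.5 ± 9.21 FPKM. By summed exon length SLC25A3 stood 5th and MTCH1 15th, because their summed exons, at 8896 and 14126 bases, are far longer than their main transcripts, at 1678 and 2006 bases. Under main transcript length the libraries of 6 of 46 pairs of neighbours did not overlap. Comparisons between groups for 1 gene do not depend on length. Shares of pairs per kilobase below use the summed exon length, and they shift with the length used.

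**Figure D3:**
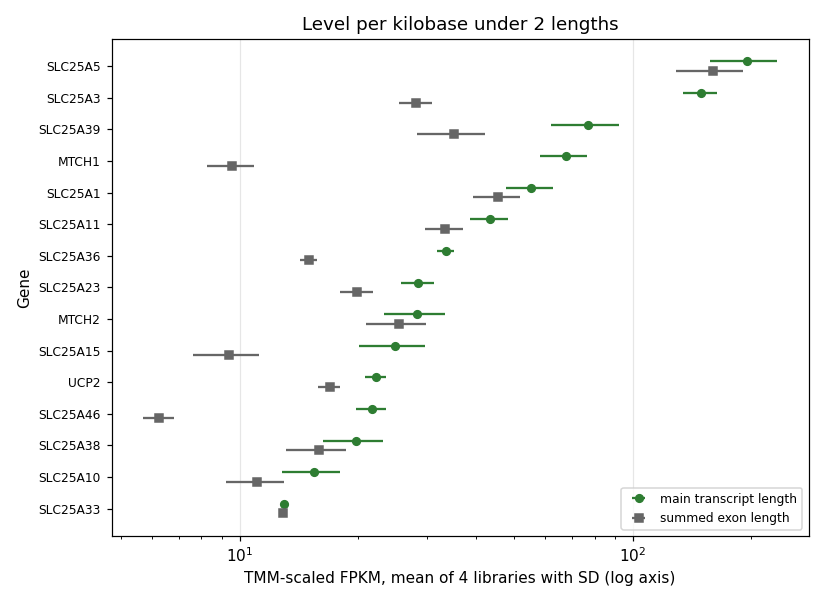
Mean FPKM of 4 libraries with SD (x, log axis) for the members among the first 12 under either length (y). Circles use the main transcript length and squares the summed exon length; SLC25A3, MTCH1, SLC25A46 and SLC25A15 move most to the right under main transcript length.

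ADP/ATP carriers exchange matrix ATP for cytosolic ADP. SLC25A5 (ANT2, chrX:119468422-119471396 on GRCh38, plus strand), the isoform of proliferating cells, was the most abundant member at 159.7 ± 30.8 FPKM. It had 224 and 282 CPM in labelled libraries, against 294 and 193 CPM in unlabelled libraries. Both labelled values lay between the unlabelled values, and the log2 fold change was 0.051 ± 0.19 (SE). SLC25A4 (ANT1, chr4:185143266-185150382), the isoform of heart and skeletal muscle, reached 6.79 ± 1.33 FPKM. It had 35.8 and 38.7 CPM in labelled libraries, against 32.6 and 23.8 CPM in unlabelled libraries. The labelled libraries both exceeded the unlabelled ones, with a log2 fold change of 0.39 ± 0.16 (SE), an unadjusted edgeR p of 0.0279 and an adjusted p of 0.382.

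SLC25A31 (ANT4), the isoform of testis, held 1 and 3 fragments in labelled libraries, against 3 and 1 fragments in unlabelled libraries, at or under 3 counts in every library. SLC25A6 (ANT3), which lies in a region shared by the sex chromosomes (chrX:1386152-1392113), was listed at 0 in every library on both chromosomes. Its main transcript of 2062 bases is the same on X and Y, with 0 differing bases, and 100% of its windows of 50 bases occur in another gene entry, counting its Y copy. Per the file headers, featureCounts ran without the setting that counts reads with several positions, so the level of SLC25A6 cannot be read from these counts. Its pseudogenes held 8 and 5 fragments in labelled libraries, against 7 and 9 in unlabelled libraries.

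Among fragments counted for ADP/ATP carriers, SLC25A5 took 86.2% in labelled replicate 1 (95% Wilson interval 84.7 to 87.5%) and 87.9% in labelled replicate 2 (86.7 to 88.9%). It took 89.9% (88.8 to 91.0%) and 89.0% (87.2 to 90.5%) in unlabelled libraries. The means were 87.0% ± 1.21 in labelled and 89.4% ± 0.678 in unlabelled libraries (SD, n = 2 each; two-sided exact permutation test p = 0.333, adjusted 0.667). The groups did not overlap and differed by -2.43 percentage points, a value without the fragments of SLC25A6. Per kilobase, SLC25A4 took 4.91% and 4.24% of SLC25A4 plus SLC25A5 in labelled libraries, against 3.45% and 3.82% in unlabelled libraries (exact permutation test p = 0.333, adjusted 0.533 over 8 pairs).

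Phosphate enters the matrix through SLC25A3, which also carries copper, and through the ATP-Mg/phosphate carriers, which exchange it for adenine nucleotides. SLC25A3 had 234 and 259 CPM in labelled libraries, against 281 and 227 CPM in unlabelled libraries, the highest fragment counts of the family beside SLC25A5. The groups overlapped, with a log2 fold change of -0.045 ± 0.15 (SE). It took 10.8% (95% Wilson interval 10.4 to 11.3%) and 11.6% (11.2 to 12.1%) of the family's fragments in labelled libraries, against 11.5% (11.13 to 11.98%) and 11.1% (10.6 to 11.6%) in unlabelled libraries. These shares averaged 11.2% ± 0.580 in labelled and 11.3% ± 0.334 in unlabelled libraries (SD, n = 2 each; exact permutation test p = 1, adjusted 1).

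The calcium-regulated ATP-Mg/phosphate carrier SLC25A23 reached 19.9 ± 1.93 FPKM and had 101 and 101 CPM in labelled libraries, against 104 and 83.4 CPM in unlabelled libraries. Its groups overlapped, with a log2 fold change of 0.10 ± 0.14 (SE). Its relatives SLC25A24 and SLC25A25, also gated by calcium, reached 6.01 ± 0.561 FPKM and 3.82 ± 0.318 FPKM, with log2 fold changes of 0.19 and 0.061. SLC25A41, the relative without the calcium-binding domain, was much scarcer at 0.723 ± 0.445 FPKM. It held 4 and 7 fragments in labelled libraries, against 15 and 13 fragments in unlabelled libraries, or 0.466 and 0.673 CPM in labelled libraries, against 1.67 and 1.96 CPM in unlabelled libraries. The groups did not overlap, and the log2 fold change of -1.62 ± 0.50 (SE) was the largest in size among members, with an edgeR unadjusted p of 0.00682 and an adjusted p of 0.303. SLC25A41 passed the minimum through its unlabelled counts alone, so a difference in that direction was favoured by the minimum itself.

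Uncoupling proteins and their relatives were represented by UCP2, a carrier of small carboxylates and aspartate, at 16.9 ± 1.07 FPKM. It had 44.7 and 47.4 CPM in labelled libraries, against 50.9 and 44.7 CPM in unlabelled libraries. The groups overlapped, with a log2 fold change of -0.056 ± 0.13 (SE). SLC25A27 (UCP4) and SLC25A14 (UCP5), known from brain, reached 4.44 ± 0.439 FPKM and 4.48 ± 0.483 FPKM, and SLC25A30, a relative known from kidney, reached 3.68 ± 0.297 FPKM. Their log2 fold changes were -0.14, 0.17 and -0.0058. The pseudogene of SLC25A14 held 10.8% of the fragments of gene and copy together. UCP3, the muscle form outside the naming rule, had 4.78 and 2.79 CPM in labelled libraries, against 3.67 and 4.22 CPM in unlabelled libraries, with overlapping groups. UCP1, the heat-producing protein of brown fat, held 1 and 10 fragments in labelled and 6 and 0 in unlabelled libraries and was not tested. Of the 3 brown fat markers, CIDEA and PPARGC1A were at 0 in all libraries.

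Carboxylate carriers link the tricarboxylic acid cycle to the cytosol. SLC25A1, which exports citrate for fatty acid synthesis, reached 45.5 ± 6.14 FPKM and stood 2nd by summed exon length. It had 96.2 and 79.7 CPM in labelled libraries, against 106 and 82.1 CPM in unlabelled libraries, and the groups overlapped around a log2 fold change of -0.10 ± 0.15 (SE). SLC25A11, the oxoglutarate carrier of the malate-aspartate shuttle, reached 33.3 ± 3.70 FPKM and had 85.6 and 83.8 CPM in labelled libraries, against 90.5 and 69.3 CPM in unlabelled libraries. Its labelled values lay between the unlabelled values, with a log2 fold change of 0.080 ± 0.14 (SE).

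SLC25A10, the dicarboxylate carrier, reached 11.1 ± 1.86 FPKM and had 24.7 and 27.5 CPM in labelled libraries, against 36.1 and 28.1 CPM in unlabelled libraries. Both labelled libraries lay below both unlabelled libraries, with a log2 fold change of -0.30 ± 0.15 (SE) and an edgeR adjusted p of 0.467. Its exons share 46.6% of their bases with the gene entry ENSG00000262660, and fragments that touch exons of both entries stay unassigned under the settings in the file headers. SLC25A21, which carries oxoadipate for lysine and tryptophan breakdown, was low at 0.721 ± 0.120 FPKM and had 3.38 and 2.69 CPM in labelled libraries, against 3.56 and 4.07 CPM in unlabelled libraries. Both labelled values lay below both unlabelled values, by a log2 fold change of -0.33 ± 0.33 (SE) and an edgeR adjusted p of 0.731. Its exons share 37.2% of their bases with PAX9 and SLC25A21-AS1 on the other strand, and without strand these cannot be told apart.

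Aspartate/glutamate carriers complete the malate-aspartate shuttle. SLC25A12 (aralar), the form of brain and muscle, reached 4.56 ± 0.575 FPKM and had 25.8 and 28.7 CPM in labelled libraries, against 24.7 and 32.6 CPM in unlabelled libraries. SLC25A13 (citrin), the form of liver, reached 10.2 ± 1.08 FPKM and had 37.4 and 34.3 CPM in labelled libraries, against 43.7 and 36.5 CPM in unlabelled libraries. Both pairs of groups overlapped, with log2 fold changes of -0.061 ± 0.16 and -0.17 ± 0.14 (SE). Per kilobase of summed exons, SLC25A12 took a mean of 31.5% of the pair in labelled and 30.3% in unlabelled libraries (exact permutation test p = 1, adjusted 1 over 8 pairs). By main transcript length the 2 lay closer, at 9.38 ± 1.18 FPKM for SLC25A12 and 12.1 ± 1.27 FPKM for SLC25A13.

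Glutamate carriers import glutamate with a proton. SLC25A22, the main form in most tissues, reached 8.55 ± 1.84 FPKM and had 37.7 and 31.4 CPM in labelled libraries, against 51.2 and 37.0 CPM in unlabelled libraries. Labelled replicate 1 lay above unlabelled replicate 2, so the groups overlapped, and the log2 fold change of -0.37 ± 0.16 (SE) had an edgeR unadjusted p of 0.0457 and an adjusted p of 0.426. SLC25A18, the form best known from astrocytes, reached 1.32 ± 0.0702 FPKM and had 6.30 and 6.16 CPM in labelled libraries, against 6.68 and 5.88 CPM in unlabelled libraries. Its groups overlapped at a log2 fold change of -0.021 ± 0.25 (SE). SLC25A22 took a mean of 85.0% of the pair per kilobase in labelled and 87.7% in unlabelled libraries, without overlap (exact permutation test p = 0.333, adjusted 0.533).

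The ornithine carrier SLC25A15, which serves the urea cycle and polyamine synthesis, reached 9.42 ± 1.80 FPKM and had 42.0 and 46.8 CPM in labelled libraries, against 40.1 and 28.97 CPM in unlabelled libraries. Both labelled libraries lay above both unlabelled libraries, and the log2 fold change was 0.35 ± 0.16 (SE; edgeR unadjusted p = 0.0440, adjusted p = 0.423). Its intronless relative SLC25A2 was low at 0.991 ± 0.0927 FPKM, with a log2 fold change of -0.040 and a 95% interval from -1.01 to 0.93. SLC25A38, which supplies glycine for heme synthesis, reached 15.9 ± 2.77 FPKM and had 47.5 and 46.5 CPM in labelled libraries, against 44.1 and 31.5 CPM in unlabelled libraries. The labelled libraries lay above the unlabelled libraries, by a log2 fold change of 0.30 ± 0.16 (SE; edgeR adjusted p = 0.479).

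The other carriers of this class had overlapping groups. SLC25A44, a carrier of branched-chain amino acids, reached 6.05 ± 0.414 FPKM, SLC25A29, a carrier of basic amino acids, 5.11 ± 0.389 FPKM, and SLC25A20, which exchanges carnitine for acylcarnitine in fat oxidation, 5.51 ± 0.0965 FPKM. Their log2 fold changes were -0.035, -0.058 and -0.0078. SLC25A20 had a coefficient of variation of 1.75%. Of the 10 amino acid and carnitine carriers, 2 had positive and 8 negative fold changes, with a median of -0.037 and none called.

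Nucleotide and cofactor carriers supply the matrix with building blocks for RNA, DNA and coenzymes. The pyrimidine nucleotide carriers SLC25A36 and SLC25A33 reached 15.0 ± 0.770 FPKM and 12.9 ± 0.204 FPKM. SLC25A36 had 149 and 161 CPM in labelled libraries, against 148 and 163 CPM in unlabelled libraries. SLC25A33 had 48.9 and 50.6 CPM in labelled libraries, against 49.7 and 50.4 CPM in unlabelled libraries. The groups overlapped in both, with log2 fold changes of -0.0061 ± 0.13 and -0.0079 ± 0.12 (SE). SLC25A33 took a mean of 46.3% of the pair per kilobase of summed exons in labelled and 46.3% in unlabelled libraries (exact permutation test p = 1, adjusted 1). By main transcript length it was the scarcer of the pair, at 12.9 ± 0.205 FPKM, against 33.4 ± 1.72 FPKM for SLC25A36. Of the 50-base windows of SLC25A33, 20.7% also occur in other genes.

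The NAD carrier SLC25A51 reached 8.59 ± 0.977 FPKM and had 32.1 and 31.9 CPM in labelled libraries, against 27.3 and 25.5 CPM in unlabelled libraries. Both labelled libraries lay above both unlabelled libraries, with a log2 fold change of 0.28 ± 0.13 (SE; edgeR adjusted p = 0.446). Its intronless copy SLC25A52 held 0 and 0 fragments in labelled libraries, against 3 and 1 fragments in unlabelled libraries, all at or under 3. SLC25A51 therefore made up 100% of the pair per kilobase in both labelled libraries, against 96.9% and 98.5% in unlabelled libraries, values that rest on 4 fragments of SLC25A52 (exact permutation test p = 0.333, adjusted 0.533). Of the 50-base windows of SLC25A51, 28.5% occur in other genes, and 29.3% of those of SLC25A52.

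SLC25A26, the carrier of S-adenosylmethionine, the methyl donor of the matrix, had 33.5 and 35.98 CPM in labelled libraries, against 39.5 and 45.9 CPM in unlabelled libraries. Both labelled libraries lay below both unlabelled libraries, with a log2 fold change of -0.29 ± 0.13 (SE; edgeR unadjusted p = 0.0465, adjusted p = 0.429). Its level was 1.78 ± 0.247 FPKM by summed exon length, against 14.5 ± 2.01 FPKM by main transcript length, as its exons sum to 21792 bases.

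SLC25A17, the peroxisomal member that carries coenzyme A and flavin cofactors, reached 10.3 ± 0.244 FPKM, SLC25A42, a mitochondrial coenzyme A carrier, 5.05 ± 0.413 FPKM, and SLC25A16, linked to coenzyme A uptake, 5.17 ± 0.936 FPKM. Their log2 fold changes were 0.049, -0.11 and -0.18. SLC25A32, the carrier of folate and flavin, was listed at 0.822 ± 0.188 FPKM, but 80.8% of its exon bases are shared with other gene entries. Of its 50-base windows, 87.9% occur in transcripts of other genes, not all of which share its exons. The level of SLC25A32 is thus uncertain.

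Iron reaches the matrix through the mitoferrins. SLC25A28 (mitoferrin-2), the broadly expressed form, reached 7.72 ± 0.820 FPKM and had 28.6 and 28.8 CPM in labelled libraries, against 25.3 and 22.9 CPM in unlabelled libraries. SLC25A37 (mitoferrin-1), the form of red cell precursors, reached 5.21 ± 0.338 FPKM and had 43.1 and 43.7 CPM in labelled libraries, against 42.0 and 37.7 CPM in unlabelled libraries. In both, the labelled libraries lay above the unlabelled libraries, by log2 fold changes of 0.25 ± 0.13 and 0.12 ± 0.13 (SE; edgeR adjusted p = 0.505 and 0.741). SLC25A28 took a mean of 60.7% of the pair per kilobase of summed exons in labelled and 58.6% in unlabelled libraries (exact permutation test p = 0.333, adjusted 0.533). By main transcript length the 2 lay further apart, at 18.2 ± 1.93 FPKM for SLC25A28 and 8.63 ± 0.560 FPKM for SLC25A37.

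SLC25A39, which imports glutathione and is regulated by it, reached 35.1 ± 6.89 FPKM and had 116 and 99.9 CPM in labelled libraries, against 157 and 122 CPM in unlabelled libraries. Both labelled libraries lay below both unlabelled libraries, and the log2 fold change of -0.38 ± 0.15 (SE) had an edgeR unadjusted p of 0.0274 and an adjusted p of 0.382. Its paralogue SLC25A40 reached 4.28 ± 0.417 FPKM with a log2 fold change of -0.10. SLC25A39 took a mean of 88.1% of the pair per kilobase in labelled and 89.8% in unlabelled libraries (exact permutation test p = 0.667, adjusted 0.889).

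Family members of the outer membrane do not act as classical carriers. MTCH2, an insertase for outer membrane proteins, reached 25.4 ± 4.44 FPKM and had 67.7 and 66.0 CPM in labelled libraries, against 92.3 and 66.5 CPM in unlabelled libraries. MTCH1, its paralogue, reached 9.58 ± 1.31 FPKM and had 127 and 129 CPM in labelled libraries, against 163 and 122 CPM in unlabelled libraries. In both genes unlabelled replicate 1 was highest and the groups overlapped, with log2 fold changes of -0.25 ± 0.15 and -0.15 ± 0.15 (SE). MTCH1 took a mean of 28.1% of the pair per kilobase of summed exons in labelled and 26.8% in unlabelled libraries (exact permutation test p = 0.333, adjusted 0.533), while by main transcript length MTCH1 was the more abundant. SLC25A46, which takes part in mitochondrial fission, reached 6.25 ± 0.563 FPKM with a log2 fold change of -0.076.

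Members whose substrates are less settled were mostly low. SLC25A43 reached 3.597 ± 0.142 FPKM, SLC25A35 4.17 ± 0.368 FPKM and SLC25A53 2.56 ± 0.262 FPKM, while SLC25A45 and SLC25A34 lay at 0.891 ± 0.140 FPKM and 0.819 ± 0.311 FPKM. Their log2 fold changes ran from -0.30 for SLC25A34 to 0.21 for SLC25A35. SLC25A48, which has been linked to choline uptake, had 3.61 and 4.33 CPM in labelled libraries, against 7.46 and 6.79 CPM in unlabelled libraries, on 31 and 45 fragments in labelled and 67 and 45 in unlabelled libraries. Its labelled libraries were both lower than its unlabelled ones, and the log2 fold change of -0.84 ± 0.27 (SE) had an edgeR unadjusted p of 0.00908 and an adjusted p of 0.306. SLC25A47, a liver member, held 3 and 3 fragments in labelled libraries, against 1 and 3 fragments in unlabelled libraries and was not tested.

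**Figure D4:**
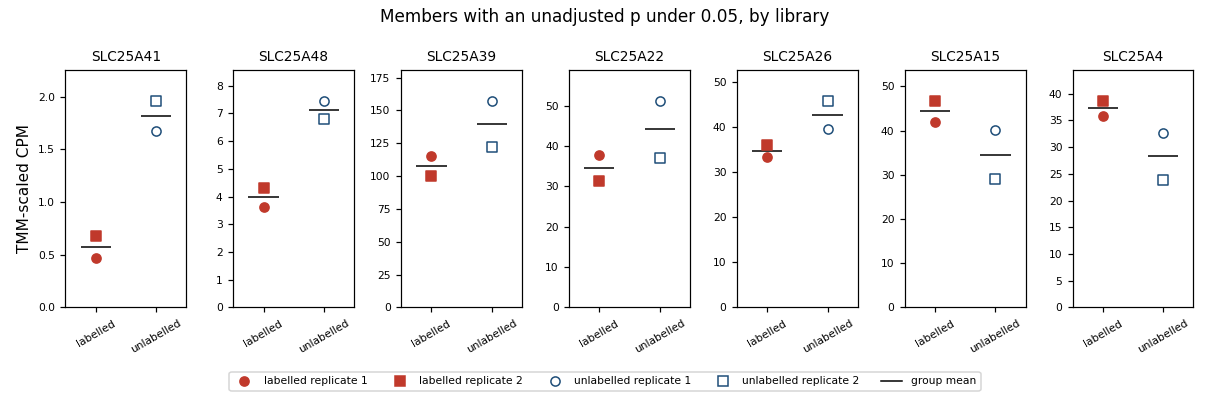
TMM-scaled CPM (y, from 0) in labelled and unlabelled libraries (x) for the 7 members with an unadjusted edgeR p under 0.05. Points are libraries and lines are means of 2. In 6 of the 7 the groups do not overlap, and in SLC25A22 they do. The 7 were picked by p from these same values, so this is not a separate result. Of all genes tested, 22.2% had both labelled libraries above both unlabelled libraries, and 22.4% had both below. The adjusted edgeR p of all 7 was 0.303 or more.

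Leaving out either unlabelled library changed which members were called. Each library was left out in turn, and the lone library of its group was then assumed to vary like the pair of the other group. Without an unlabelled library that pair was the labelled one, whose median difference over members was 0.12, against 0.25 between unlabelled libraries. The p-values of these fits thus leave out the spread between unlabelled libraries. Without labelled replicate 1 or labelled replicate 2, edgeR called 0 members, against 0.449% and 0.279% of all genes. Without unlabelled replicate 1, 19.0% of all genes were called, and 6 members were higher in labelled libraries, against 11.6% of all genes, and 2 lower, against 7.37%. The higher members were SLC25A4 at a log2 fold change of 0.68, SLC25A15 at 0.65, SLC25A38 at 0.60, SLC25A5 at 0.42, SLC25A11 at 0.32 and SLC25A23 at 0.30, with edgeR adjusted p from 2.97e-05 to 0.0290. The lower members were SLC25A16 at -0.41 and SLC25A26 at -0.37, with edgeR adjusted p of 0.00703 and 0.0206. Without unlabelled replicate 2 none of these 8 was called: SLC25A4 stood at 0.20, SLC25A15 at 0.16, SLC25A38 at 0.095 and SLC25A26 at -0.18. The direction turned for the other 4, with -0.21 for SLC25A5, -0.092 for SLC25A11, -0.045 for SLC25A23 and 0.11 for SLC25A16.

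Without unlabelled replicate 2, 4.61% of all genes were called, and the members called were others. No member was higher, against 2.06% of all genes, and 6 were lower, against 2.55%. These were SLC25A48 at -0.89, SLC25A22 at -0.57, SLC25A39 at -0.54, MTCH2 at -0.46, SLC25A10 at -0.46 and MTCH1 at -0.34, with edgeR adjusted p from 5.48e-06 to 0.0420. No member was called in both cases. Without unlabelled replicate 1 these stood at -0.73 for SLC25A48, -0.076 for SLC25A22, -0.15 for SLC25A39 and -0.068 for SLC25A10. For MTCH2 and MTCH1 the direction turned, with 0.037 and 0.10.

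**Figure D5:**
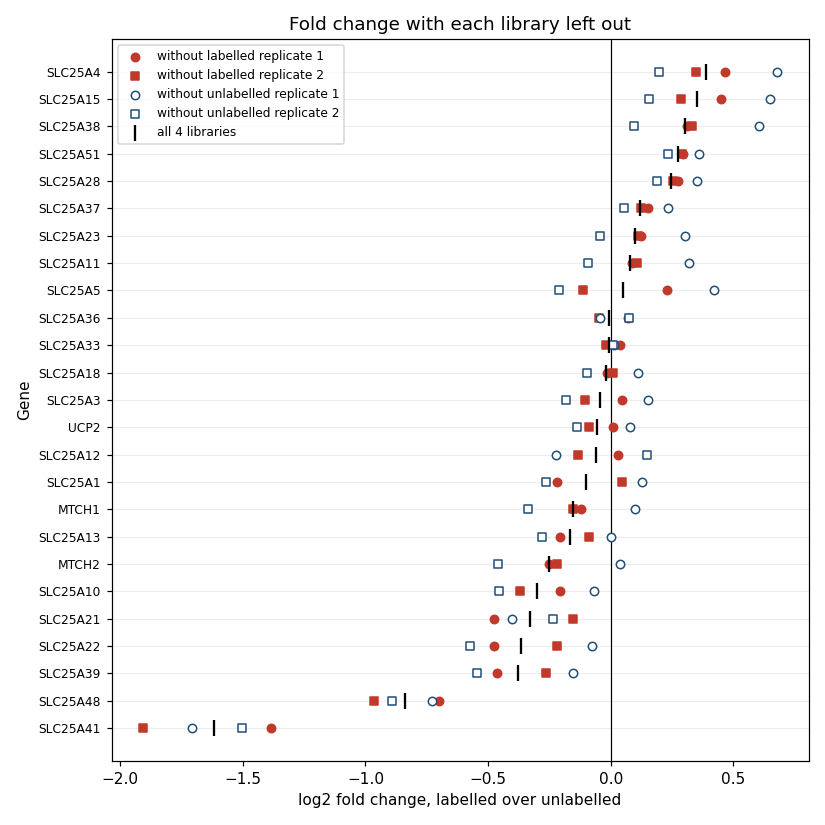
Log2 fold change of labelled over unlabelled libraries (x) for 25 members (y) with all 4 libraries (bars) and with each library left out (points). Open circles, without unlabelled replicate 1, lie to the right of open squares, without unlabelled replicate 2, in most members, and SLC25A5 ranges from -0.21 to 0.42.

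Features of the transcripts were set beside the fold changes as a description. Over the 47 members, which share the same 4 libraries, Spearman's rho with the log2 fold change was 0.13 for the uridine content of the main transcript, -0.14 for its GC content, 0.021 for its length and 0.16 for the mean level in CPM. Uridine content ran from 17.3% to 34.8% with a median of 25.7%. The sign of each turned between the cases with 1 unlabelled library left out. Without unlabelled replicate 1 the values were -0.036 for uridine, 0.050 for GC, -0.14 for length and 0.36 for the mean level. Without unlabelled replicate 2 they were 0.21 for uridine, -0.22 for GC, 0.21 for length and -0.16 for the mean level.

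Genes that serve the carriers or share their membranes were described in the same fit. Of 31 tested in 6 lists, 0 were called by edgeR, against 0.285% of all genes. DESeq2 also called 0, against 0.458% of the genes to which it gave an adjusted p. Of the 10 genes of the TIM22 insertion pathway, which places carriers in the inner membrane, TIMM10B had 45.6 and 45.3 CPM in labelled libraries, against 38.8 and 32.6 CPM in unlabelled libraries, and TIMM8B had 50.02 and 50.8 CPM in labelled libraries, against 60.5 and 64.4 CPM in unlabelled libraries. Neither overlapped between groups, at log2 fold changes of 0.34 ± 0.13 and -0.31 ± 0.12 (SE, with edgeR adjusted p = 0.369 and 0.382). Both genes were picked by the smallest p of the list, so the lack of overlap is not a separate result. Of all genes tested, 22.2% had both labelled libraries above both unlabelled libraries, and 22.4% had both below. The list had a median of 0.020. At an unadjusted edgeR p under 0.05 it held 1 positive fold change, against 5.67% of all genes, and 1 negative, against 5.88%.

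The pyruvate carrier subunits and sideroflexins, inner membrane transporters outside the SLC25 family, had a median log2 fold change of 0.025 over 7 genes. SFXN5 had 28.2 and 24.3 CPM in labelled libraries, against 30.4 and 34.4 CPM in unlabelled libraries, and SFXN4 had 33.7 and 36.8 CPM in labelled libraries, against 38.8 and 37.0 CPM in unlabelled libraries, with log2 fold changes of -0.30 ± 0.14 and -0.10 ± 0.13 (SE). The 3 VDAC channels of the outer membrane had a median of -0.12, with VDAC2 at -0.16 ± 0.14 and VDAC3 at -0.12 ± 0.13 (SE). None of these 10 genes had an unadjusted edgeR p under 0.05, against 11.5% of all genes.

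The calcium uniporter complex had a median log2 fold change of -0.13 over 6 genes. At an unadjusted edgeR p under 0.05 it held 1 positive fold change, against 5.67% of all genes, and 0 negative ones, against 5.88%. MICU3, a gatekeeper subunit known from brain, stood at -0.35 ± 0.26 (SE) with overlapping groups. The 4 mitochondrial ABC transporters had a median of -0.15. At the same unadjusted threshold they held 0 positive fold changes and 1 negative one, that of ABCB8 (edgeR unadjusted p = 0.00126). ABCB8 had 36.03 and 32.9 CPM in labelled libraries, against 50.3 and 48.7 CPM in unlabelled libraries, at a log2 fold change of -0.53 ± 0.13 (SE) and an edgeR adjusted p of 0.160, the lowest of these lists. ABCB10 stood at -0.26 ± 0.13 (SE; edgeR adjusted p = 0.470).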

How the data were processed

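RNA of 4 HEK293T libraries was analysed, with groups and replicate numbers from the sample titles. Per the file headers the authors counted fragments with featureCounts 1.6.4 on GENCODE 44, without strand, over pairs with both ends mapped and no chimeric pairs; per the submitters' processing notes STAR 2.7.9a aligned to GRCh38 and DESeq2 1.42.0 was used. The deposited counts are whole numbers, not normalized, and all 62700 identifiers had symbols. Whether duplicates were removed was not stated in any source used.

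Counts were tested with edgeR 4.0.16 in R 4.3.3 (glmQLFit, glmQLFTest, filterByExpr, TMM) over 18973 genes with Benjamini-Hochberg adjustment and a threshold of 0.05, without a block. filterByExpr and the minimum of 10 counts in 2 libraries kept the same 47 members. SE is the log2 fold change divided by the root of F. CPM and FPKM are TMM-scaled. Shares were compared with two-sided exact permutation tests, whose smallest p is 0.333 over 6 arrangements. Wilson intervals, at 95%, came from SciPy 1.17.1 and cover counting error only. Windows of 50 bases were looked up, in sense, in GENCODE 29 transcripts. The fit was tested on simulated data.

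The values of 3 genes are not reported here. Named values follow a rule: all other members with a level, values per library for the 12 highest by TPM, the 5 largest positive and 5 largest negative fold changes and the paralogue pairs, and the 2 genes with the smallest p of each further list. SLC25A26 and SLC25A16 were singled out after their values were seen. Members and lists were chosen with earlier results of these data known. Alternatives covered scaling, filters, DESeq2, thinning to the lowest assigned total, a replicate block and each library left out; main transcript length and the SLC25A5 share per kilobase were added after seeing the data. Xenograft material was not analysed here.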

Additional observations from a re-analysis of the deposited data

How the results depend on the processing

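With all 4 libraries 0 members were called under every scaling, filter, tool and total tried except library size alone, which called 9, with a member median of -0.39. Over all genes 54 were called, against 2744 by library size alone, 302 without a filter and 58 to 3985 with 1 library left out. With 1 library left out, members called ran from 0 to 8 and their median from -0.045 to 0.077. With the replicate block 0 members and 236 of all genes were called; the deviations of same-numbered libraries correlated at -0.070, so the numbers were not taken to pair libraries, and every one of the 25 named members kept its direction. Of 300 pairs of named member and alternative, 241 kept direction and side of the threshold, 20 passed the threshold and 39 turned direction. With each library left out, direction turned for SLC25A5 (-0.21 to 0.42), SLC25A1 (-0.27 to 0.13), SLC25A11 (-0.092 to 0.32), SLC25A3 (-0.18 to 0.15), MTCH2 (-0.46 to 0.037), SLC25A23 (-0.045 to 0.30), UCP2 (-0.14 to 0.077), SLC25A36 (-0.050 to 0.072), SLC25A33 (-0.021 to 0.038), SLC25A12 (-0.22 to 0.15), SLC25A13 (-0.28 to 0.0025), SLC25A18 (-0.10 to 0.11) and MTCH1 (-0.34 to 0.10). By library size alone the log2 fold changes that turned were -0.30 for SLC25A5, -0.27 for SLC25A11, -0.25 for SLC25A23, -0.048 for SLC25A38, -0.00083 for SLC25A15, -0.079 for SLC25A51, -0.11 for SLC25A28 and -0.23 for SLC25A37. Elsewhere they lay near 0, at 0.024 for SLC25A36, 0.020 for SLC25A33 and 0.010 for SLC25A18 with DESeq2, 0.024 for SLC25A36, 0.021 for SLC25A33 and 0.0066 for SLC25A18 without a filter, 0.022 for UCP2 and 0.0042 for SLC25A36 with all libraries thinned to the lowest assigned total, which left the depth outside the mitochondrial chromosome unequal, and 0.00065 for SLC25A36 with TMM outside the mitochondrial chromosome. The difference in the SLC25A5 share was -0.92 percentage points per kilobase. The causes were not tested. The intervals of SLC25A2, SLC25A21, SLC25A32, SLC25A34, SLC25A41 and SLC25A48 reach beyond 1 in size. Except for SLC25A48, their SE ran from 0.33 for SLC25A21 to 0.50 for SLC25A41, on at most 35 fragments in any library. SLC25A48 had an SE of 0.27, near the 0.26 of SLC25A45, whose interval stays within 1. Its log2 fold change was larger in size, at -0.84 against -0.089 for SLC25A45. The part of depth in these intervals was not tested.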

Other observations

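SLC25A6 was not alone among genes annotated on both sex chromosomes. Of all symbols counted, 35 had 1 entry on X and 1 on Y with the same exon length, and 69 of these 70 entries held 0 counts in all 4 libraries. The remaining entry never exceeded 1 count in a library. All 35 symbols together held 2 counts.

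Annotated pseudogenes of other members held few fragments. The copies of MTCH1 held 67 and 67 fragments in labelled libraries, against 63 and 63 in unlabelled libraries, or 5.24% of gene and copies. The copy of SLC25A53 held 4.53% of gene and copy, and the 9 copies of SLC25A5 held 0.295%. Of the 47 members tested, 23 shared exon bases with another gene entry, led by SLC25A32, SLC25A10, SLC25A21 and SLC25A35 at 80.8%, 46.6%, 37.2% and 28.7%.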
